A study of Homo sapiens with 4 samples.

Results

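The 10 genes described here are factors and targets of the Hippo pathway, namely the coactivators YAP1 and WWTR1 (which encodes TAZ), the DNA-binding factors TEAD1, TEAD2, TEAD3 and TEAD4, and the target genes CCN1, CCN2, ANKRD1 and AMOTL2. A region was assigned to a gene when its summit lay in the gene or within 50 kb of a GENCODE transcription start site (TSS) of it. By this rule 155 of the 101142 peaks in the CTR list and 157 of the 109486 peaks in the p63 list on chromosomes 1 to 22, X and Y lay at these genes. The lists came from ATAC-seq, which reads out accessible chromatin through the DNA that a transposase can reach, and the cells were BJ, an established human fibroblast line. All cells carried a lentiviral rtTA transactivator and a doxycycline-inducible retroviral construct, which expressed Klf4 alone in the CTR group and DNp63alpha (ΔNp63α) joined to Klf4 by a self-cleaving peptide in the p63 group. Both groups received doxycycline, so KLF4 was induced in both. The paper used this system to see early changes of chromatin after p63 expression. The lines were polyclonal, and both replicates of a group were separate inductions of the same lines. Each group had 2 samples but 1 deposited list, so none of the values below carries an error between replicates and no test between the groups could be made.

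In the Hippo pathway a kinase cascade phosphorylates YAP and TAZ and keeps them out of the nucleus. When the cascade is low, YAP and TAZ enter the nucleus and bind TEAD factors, which recognise the sequence CATTCC and often share regulatory elements with AP-1. Fibroblasts are known for high YAP/TAZ activity on stiff substrates, and p63 is a p53 family factor that marks the basal layer of stratified epithelia.

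Each peak had a −log10 q from the peak caller, and a value of 10 or more, the threshold the study used, is called open here. Open regions at the 10 genes numbered 99 for CTR and 106 for p63. The members nearest the threshold had a −log10 q of 10.6 above and 9.93 below it in the CTR list, and of 10.1 above and 9.47 below it in the p63 list. The height of a region is given as the pileup at its summit, in reads, recovered from the deposited fold enrichment and −log10 p. To set the lists side by side the pileup was divided by the genome background coverage of its list, which was 1.18 in CTR and 1.13 in p63. Ratios of these scaled pileups are given as p63 over CTR with a 95% exact interval, which covers counting error only. A region open in 1 list alone was selected by its −log10 q in both lists. Its ratio follows in part from that selection, so its interval is not a test of a difference. As a check of the cell type, a promoter region (summit within 1 kb of a TSS) was open at 12 of 14 fibroblast markers in each list, compared with 1 of 10 keratinocyte markers (CDH1), 2 of 6 melanocyte markers (MITF and PMEL) and 1 of 5 endothelial markers (TIE1) in each. Promoters of 3 of 5 blood markers were open in the CTR list and 1 of 5 in the p63 list. The part of other cells in the results was not tested.

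The sequences on which the findings turn are shown first, read from GRCh38. The first set holds sites of the p53/p63 family, which consist of a pair of decamers of 20 bp in all. Each decamer reads RRRCWWGYYY, where R is A or G, W is A or T and Y is C or T. Its 4-base core begins with C and ends with G, which were both required. Any other base that departs from this pattern, inside or outside the core, counted as a mismatch. The cores are in capitals. All sites with at most 3 mismatches within 100 bp of the summit of an open region at the 10 genes are listed, and the last line is the site with 4 mismatches in the YAP1 region with the largest pileup ratio among those open in both lists.
AMOTL2 distal region, 0 mismatches, chr3:134341569-134341588, plus strand: gaaCATGcctgggCTAGcct
YAP1 intron, 3 mismatches, chr11:102112163-102112182, plus strand: ggcCAAGtcctgcCTAGttc
WWTR1 intron, 3 mismatches, chr3:149625648-149625667, plus strand: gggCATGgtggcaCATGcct
TEAD1 intron, 3 mismatches, chr11:12893934-12893953, plus strand: gaaCCTGtcttggCTTGgct
YAP1 distal region, 4 mismatches, chr11:102256442-102256461, plus strand: gttCATGtctggtCTTGtac

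The next set holds the 250 bases before the start of CCN2 and ANKRD1, classical YAP targets, from the RefSeq promoter table for GRCh38, with the TEAD core, which reads GGAATG on the strand shown, in capitals. CCN2 had 3 cores that began 169, 104 and 95 bases before the start, and ANKRD1 had 2 that began 220 and 128 bases before it. Among all 35116 promoters of the table, 11.9% held a TEAD core in this window and 0.940% held 2 or more. The table matched 7 of the 10 genes with 10 entries, of which 4 held a core, namely 1 each of YAP1, CCN2, ANKRD1 and AMOTL2. TEAD1, TEAD4 and CCN1 were not matched.
CCN2, chr6:131951373-131951622, minus strand: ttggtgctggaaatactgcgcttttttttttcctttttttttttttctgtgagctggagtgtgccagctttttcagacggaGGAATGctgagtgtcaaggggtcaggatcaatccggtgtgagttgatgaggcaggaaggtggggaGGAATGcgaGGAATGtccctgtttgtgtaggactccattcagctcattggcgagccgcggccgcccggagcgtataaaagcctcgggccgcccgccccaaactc
ANKRD1, chr10:90921088-90921337, minus strand: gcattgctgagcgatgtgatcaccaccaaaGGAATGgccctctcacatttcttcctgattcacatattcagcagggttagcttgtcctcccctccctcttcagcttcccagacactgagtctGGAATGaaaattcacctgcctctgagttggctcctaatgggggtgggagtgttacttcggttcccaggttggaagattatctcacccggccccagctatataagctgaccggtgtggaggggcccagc

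The last set holds 75 bases to either side of the summit of that YAP1 region and of the WWTR1 region with the highest −log10 q among those open in the CTR list alone. TEAD cores and AP-1 motifs (TGANTCA, both strands) are in capitals. The YAP1 window held 1 TEAD core and 1 AP-1 motif. The WWTR1 window held 2 AP-1 motifs and no TEAD core.
YAP1 distal region, chr11:102256344-102256494, plus strand: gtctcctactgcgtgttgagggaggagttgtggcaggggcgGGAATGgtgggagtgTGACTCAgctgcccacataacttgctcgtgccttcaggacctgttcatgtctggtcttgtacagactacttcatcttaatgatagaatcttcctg
WWTR1 intron, chr3:149554978-149555128, plus strand: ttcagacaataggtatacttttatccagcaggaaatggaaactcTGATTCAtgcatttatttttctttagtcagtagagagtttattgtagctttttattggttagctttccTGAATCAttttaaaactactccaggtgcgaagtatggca

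Most of the open regions at the 10 genes were open in both lists. Of the 99 CTR regions, 13 were open in the CTR list alone (13.1%, 95% Wilson interval 7.84 to 21.2), compared with 16.5% of the whole CTR list. Of the 106 p63 regions, 21 were open in the p63 list alone (19.8%, 13.3 to 28.4), compared with 23.9% of the whole p63 list. Both shares were near those of the whole lists. No counterpart at any value was found for 2 of the CTR-only and 13 of the p63-only regions, which was 2.02% and 12.3% of the regions compared with 3.29% and 12% over the whole lists. The other 11 CTR-only and 8 p63-only regions overlapped a peak of the other list under the threshold. When as many top-ranked p63 peaks as CTR peaks were taken, the p63-only regions numbered 18 of 100 and the CTR-only regions 16 of 99, and the whole lists then had 20.7% in each direction.

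**Figure D1:**
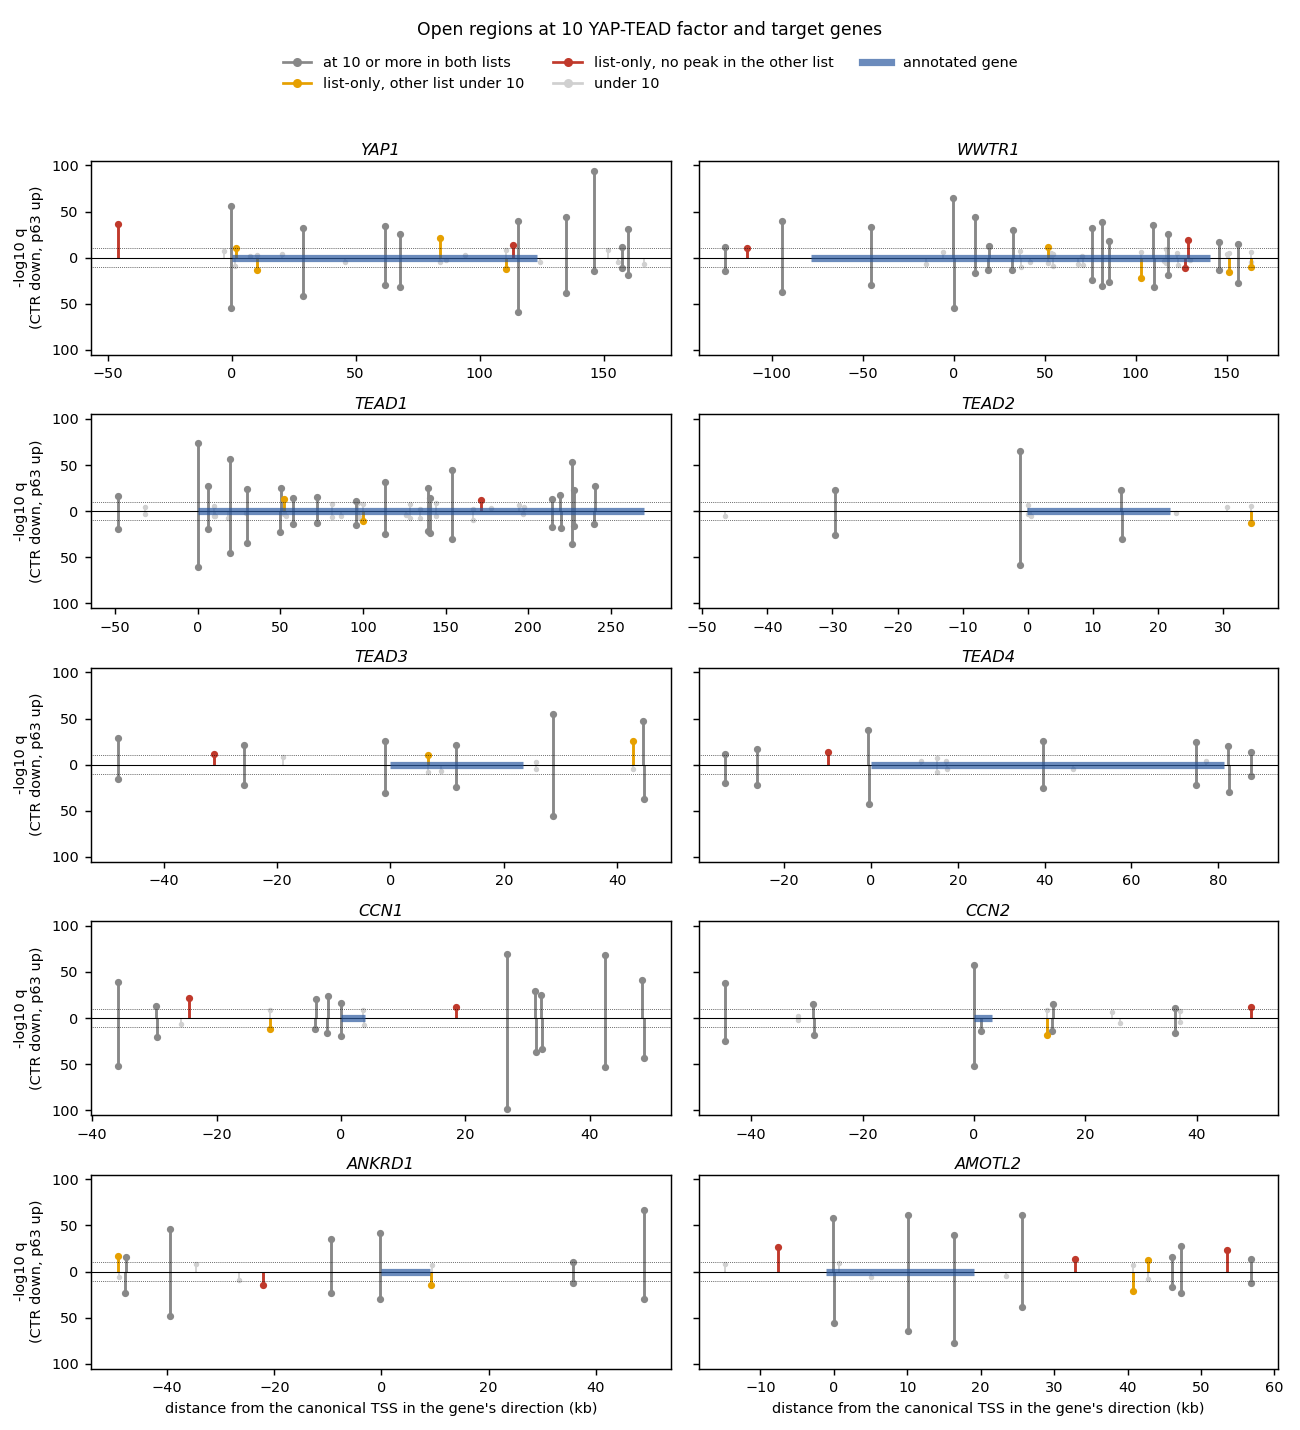
Regions at the 10 genes by distance of the summit from the canonical TSS (horizontal axis, kb, in the direction of the gene) and by −log10 q (vertical axis, p63 list upwards, CTR list downwards). Grey stems are open in both lists, orange and red stems are open in 1 list, and pale stems are under 10. The stem pair at 146 kb of YAP1 reaches 94.3 in the p63 list and 14.0 in the CTR list.

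By role, the coactivators had 7 p63-only of 30 p63 regions and 6 CTR-only of 29 CTR regions, the TEAD factors 6 of 40 and 2 of 36, and the targets 8 of 36 and 5 of 34. The most p63-only regions lay at YAP1 (4 of 13) and AMOTL2 (4 of 11), followed by WWTR1 (3 of 17) and TEAD3 (3 of 9). TEAD2 had none among its 3 p63 regions. The most CTR-only regions lay at WWTR1 (4 of 18), while TEAD3 and TEAD4 had none among 6 and 7 CTR regions. Of the p63-only regions, 7 of 21 lay within 3 kb of a TSS of any gene (33.3%, compared with 26.0% of all p63-only regions), and of the CTR-only regions 2 of 13 (15.4%, compared with 24.5%).

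**Figure D2:**
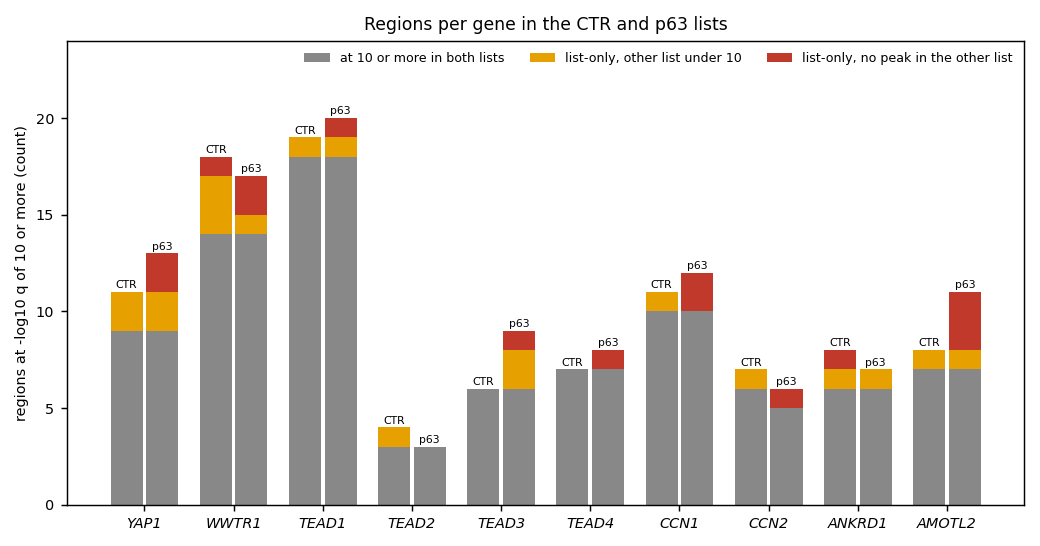
Number of open regions at each gene in the CTR and p63 lists (vertical axis, count), divided into regions open in both lists (grey), open in 1 list with a peak under 10 in the other (orange) and open in 1 list with no peak in the other (red). Red segments occur at 8 genes in the p63 list and at WWTR1 and ANKRD1 in the CTR list.

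The TSS regions of these genes were open in both lists at similar heights, with TEAD2 as the exception. At the canonical TSS of YAP1 the summit pileup was 90 reads in CTR and 91 in p63 (ratio 1.06, 0.780 to 1.43). At that of WWTR1 it was 95 and 106 reads (1.17, 0.875 to 1.55), and at that of TEAD1 it was 85 and 97 reads (1.19, 0.882 to 1.61). TEAD3 had 64 and 54 reads (0.881, 0.602 to 1.29) and TEAD4 81 and 68 reads (0.877, 0.626 to 1.23). Among the targets, CCN1 had 78 and 68 reads (0.911, 0.648 to 1.28), CCN2 94 and 93 reads (1.03, 0.768 to 1.39), ANKRD1 34 and 48 reads (1.48, 0.931 to 2.36) and AMOTL2 95 and 91 reads (1.0, 0.742 to 1.35). The interval of the ratio held 1 at each of these 9 genes. ANKRD1 had both the lowest TSS pileup of the 9 and the ratio farthest from 1.

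At TEAD2 the strongest peaks within 1 kb of its start were under the threshold in both lists, with 27 reads and a −log10 q of 6.89 in the p63 list and 25 reads and a −log10 q of 4.80 in the CTR list. These peaks did not overlap, and the CTR peak that overlapped the p63 one had 22 reads and a −log10 q of 3.33. An open region 1.17 kb upstream of the TEAD2 start, in DKKL1, had 89 reads in CTR and 91 in p63. TEAD2 also had the fewest open regions of the 10 genes, 4 in CTR and 3 in p63.

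**Figure D3:**
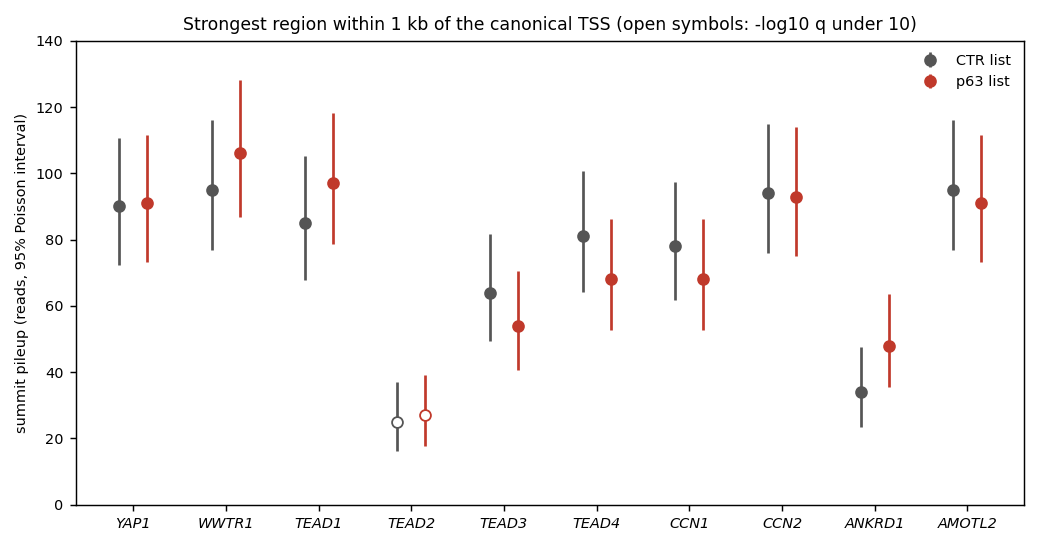
Summit pileup (vertical axis, reads) of the region with the highest −log10 q within 1 kb of the canonical TSS of each gene, in the CTR list (grey) and the p63 list (red), with 95% exact Poisson intervals. Open symbols, at TEAD2 alone, mark peaks under the threshold, which do not overlap each other, and the CTR and p63 intervals overlap at all 10 genes.

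YAP1 encodes the coactivator after which the complex is named and lies on the plus strand of chromosome 11 (chr11:102110447-102233424, ENSG00000137693.14). The largest pileup ratio among the regions at the 10 genes that were open in both lists was that of an intergenic region 146 kb downstream of its canonical TSS and 23 kb past its end. In the p63 list it lay at chr11:102256006-102256589 with a pileup of 100 reads, a −log10 q of 94.3 and 19.4-fold enrichment, which was at the 98.9th percentile of that list. In the CTR list it lay at chr11:102256132-102256684 with 22 reads, a −log10 q of 14.0 and 7.76-fold enrichment, at the 56.4th percentile. The ratio was 4.75 (2.97 to 7.92), and only 12 of the 47396 regions open in both lists with a solved pileup had a ratio as high. Both summits lay within 17 bp of each other. The best p53/p63 family match near its summit had 4 mismatches. A match of up to 4 mismatches was found in 3.98% of all p63 regions open in both lists. YAP1 was the nearest protein-coding gene by TSS, 29446 bp away. The nearest TSS of any gene was that of ENSG00000254422, 25497 bp away.

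The neighbours of this region had ratios nearer to 1. The open region 135 kb downstream of the TSS had 52 reads in CTR and 53 in p63 (1.06, 0.712 to 1.59), and those at 157 and 160 kb had 20 and 23 reads (1.20, 0.631 to 2.31) and 28 and 41 reads (1.53, 0.923 to 2.57). An intronic region within 1 kb of an alternative TSS of YAP1, 116 kb from the canonical one, held 2 TEAD cores and had 70 reads in CTR and 56 in p63 (0.836, 0.577 to 1.21). It was the strongest YAP1 region in the CTR list, with a −log10 q of 58.6.

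YAP1 had 4 p63-only regions. The strongest, at chr11:102064273-102064663 in CFAP300, lay 45.9 kb upstream of YAP1 and reached 36 reads and a −log10 q of 36.8, with no CTR peak at any value. Its best p53/p63 family match had 4 mismatches, and CFAP300 had the nearest TSS, 2005 bp away. Another such region, at chr11:102223843-102224183 in an intron, had 31 reads and a −log10 q of 13.8. At chr11:102194328-102194638, in an intron, the pileup was 24 reads in p63 and 10 in CTR (2.51, 1.16 to 5.87), with a −log10 q of 21.5 compared with 5.19. The region with the 3-mismatch site, in an intron at chr11:102111539-102112272, was p63-only by a small margin, with a −log10 q of 10.3 compared with 9.01, and its summits lay 467 bp apart. In the other direction, the 2 CTR-only regions of YAP1 were intronic and each held a TEAD core, with 19 reads in CTR and 7 in p63 at chr11:102120554-102120896 and 18 reads in each list at chr11:102220697-102221023.

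WWTR1 encodes TAZ, the paralogue of YAP, and lies on the minus strand of chromosome 3 (chr3:149517235-149736714, ENSG00000018408.15). Of its 14 shared regions 10 had a ratio above 1, and the interval excluded 1 in 2 of these, both intronic. At chr3:149646130-149646622, 11.7 kb into the gene, the pileup was 21 reads in CTR and 45 in p63 (2.24, 1.31 to 3.96), and the −log10 q was 17.04 and 44.13. A ratio as high was found in 1.29% of the regions open in both lists. At chr3:149625408-149626052, 32.4 kb into the gene, the pileup was 25 and 43 reads (1.80, 1.07 to 3.07). This region held a p53/p63 family site with 3 mismatches in the p63 window, and its summits lay 255 bp apart. An alternative TSS 45.2 kb upstream of the canonical one was open in both lists with 39 and 42 reads (1.13, 0.710 to 1.79).

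List-only regions at WWTR1 were found in both directions. The region open in the CTR list alone at chr3:149554853-149555227, whose sequence is shown above, had 30 reads in CTR and 11 in p63 (0.383, 0.173 to 0.786), and a −log10 q of 22.3 and 6.26. A CTR-only intergenic region at chr3:149506480-149506873 with 2 TEAD cores had 27 and 12 reads (0.464, 0.214 to 0.948). At chr3:149501493-149501936, in TM4SF4, 34 reads in CTR and 19 in p63 gave the lowest ratio of the regions open in both lists at the 10 genes (0.584, 0.315 to 1.05), with the largest fall of percentile rank, although the interval held 1. The intronic regions with no peak in the other list were chr3:149528843-149529383 in p63 (26 reads, −log10 q of 19.4) and chr3:149530786-149531068 in CTR (20 reads, −log10 q of 10.7, 1 TEAD core). Another in p63 lay in ANKUB1 at chr3:149771802-149772077, with 15 reads and a −log10 q of 10.7.

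**Figure D4:**
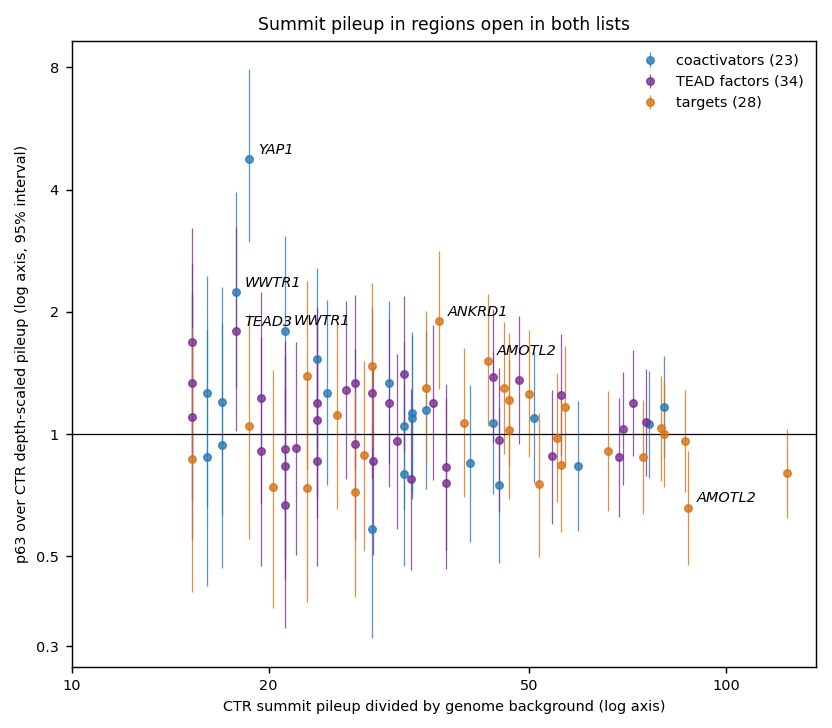
Ratio of depth-scaled summit pileup, p63 over CTR, with 95% exact intervals (vertical log axis), against the CTR pileup divided by the genome background (horizontal log axis) for the 85 p63 regions open in both lists, coloured by role. The 7 regions whose interval excludes 1 are named by gene, 6 above 1 and an AMOTL2 region below it.

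TEAD1 (chr11:12674421-12944737, plus strand, ENSG00000187079.20), a TEAD factor with the longest gene of the group, had 19 open regions in CTR and 20 in p63, of which 18 were shared. Its TSS region held 2 TEAD cores. The ratios of the shared regions ran from 0.760 to 1.68, and none of the intervals excluded 1. Among these shared regions, the largest increase of percentile rank was at chr11:12914434-12914877, in an intron 240 kb from the start, with 18 reads in CTR and 29 in p63 (1.68, 0.904 to 3.22), and the largest decrease at chr11:12814908-12815121, with 44 and 35 reads (0.831, 0.517 to 1.33). The intronic region with a p53/p63 family site of 3 mismatches and 2 TEAD cores, at chr11:12893733-12894469, had 23 and 27 reads (1.23, 0.677 to 2.24) with summits 283 bp apart. Another intronic region, at chr11:12725904-12726631, was open in p63 alone with 14 reads in CTR and 28 in p63 (2.09, 1.06 to 4.29). A p63 region with no CTR peak lay in an intron at chr11:12845745-12846242, with 19 reads and a −log10 q of 12.3.

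The other TEAD genes had fewer open regions. At TEAD3 (chr6:35473597-35497079, minus strand, ENSG00000007866.22) a region in FANCE, 42.8 kb downstream of the TSS, was open in p63 alone (chr6:35454151-35454606), with 19 reads in CTR and 51 in p63 (2.80, 1.63 to 5.03) and a −log10 q of 4.47 and 25.5. The TSS of FANCE itself, 1513 bp away, was nearer than that of TEAD3. A shared region 48.1 kb upstream of TEAD3, at chr6:35545072-35545450, had 21 and 36 reads (1.79, 1.02 to 3.23). The p63 region with no CTR peak at TEAD3 lay at chr6:35527803-35528434 with 19 reads and a −log10 q of 11.9, and its best p53/p63 family match had 4 mismatches. At TEAD4 (chr12:2959330-3040676, plus strand, ENSG00000197905.10) such a region lay 9.89 kb upstream of the TSS at chr12:2949307-2949716, with 18 reads, a −log10 q of 14.2 and a match with 4 mismatches. The lowest ratio of the TEAD4 regions open in both lists was at chr12:2925628-2925882, with 25 reads in CTR and 16 in p63 (0.669, 0.334 to 1.30).

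CCN1 (chr1:85580761-85584589, plus strand, ENSG00000142871.18) encodes the matricellular protein CYR61. The strongest region of all 10 genes in the CTR list was an intergenic region past its end, 26.6 kb downstream of the CCN1 start by its p63 summit, with 146 reads in CTR and 112 in p63 (0.801, 0.621 to 1.03) and a −log10 q of 98.2 and 69.8. It lay at chr1:85607011-85607721 in the p63 list. The region 42.4 kb downstream had 59 reads in CTR and 71 in p63 (1.26, 0.878 to 1.81). None of the intervals at the open regions of CCN1 excluded 1, and the ratios of its 10 shared regions ran from 0.718, at chr1:85550832-85551488 in DDAH1, to 1.30. The p63 regions with no CTR peak were chr1:85556246-85556518 in DDAH1, with 28 reads and a −log10 q of 21.6, and chr1:85599004-85599386, with 16 reads and a −log10 q of 11.8.

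CCN2 (chr6:131948176-131951372, minus strand, ENSG00000118523.6) encodes connective tissue growth factor. Its TSS region, whose RefSeq promoter is shown above, had the highest −log10 q of its open regions in both lists, 52.0 in CTR and 58.1 in p63, and 2 TEAD cores within 100 bp of the summit. The p63 row covered 2040 bp and overlapped both the CTR region at the TSS and a separate CTR region in an exon (47 reads, −log10 q of 13.8), which is why the shared regions numbered 86 in CTR and 85 in p63. The other shared regions of CCN2 had ratios between 0.735 and 1.39, and none of the intervals excluded 1. The lowest was at chr6:131980067-131980428, with 27 reads in CTR and 19 in p63, and a larger rank decrease was found at chr6:131915197-131915744, with 24 and 17 reads (0.740, 0.373 to 1.44). A p63 region with no CTR peak, at chr6:131901491-131901690, lay at the edge of the window, 49.8 kb downstream of the TSS, with 16 reads.

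ANKRD1 (chr10:90912096-90921087, minus strand, ENSG00000148677.7) encodes a muscle ankyrin repeat protein and is a widely used YAP target. Its TSS region had a −log10 q of 29.3 in CTR and 42.2 in p63 and held 1 TEAD core and 1 AP-1 motif within 100 bp of the summit. Among its regions open in both lists the largest ratio was at chr10:90871365-90872593, which lay 49.1 kb downstream, at the promoter of RPP30, with 43 reads in CTR and 78 in p63 (1.90, 1.29 to 2.82). The nearest TSS to it was that of RPP30, 38 bp away. At the upstream edge of the window, at chr10:90970043-90970466, a region open in p63 alone had 15 reads in CTR and 30 in p63 (2.09, 1.09 to 4.18), with summits 192 bp apart. A CTR region with no p63 peak lay at chr10:90943118-90943286, 22.1 kb upstream, with 20 reads and a −log10 q of 14.5.

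AMOTL2 (chr3:134355347-134375479, minus strand, ENSG00000114019.15) encodes an angiomotin-like protein that binds YAP and is itself a YAP target. Of all 10 genes it had the most p63 regions with no CTR peak, 3 of its 11 open regions. One of these, an intergenic region at chr3:134341237-134341870, 32.8 kb downstream of the canonical TSS, held the only p53/p63 family site without a mismatch among the open regions of the 10 genes, with 23 reads, a −log10 q of 13.9 and 7.39-fold enrichment. In the whole p63 list 83 open regions held such a site, and 63 of these overlapped no CTR peak. The others were chr3:134381785-134382192, 7.62 kb upstream, with 29 reads, a −log10 q of 26.1, 1 TEAD core and a match with 4 mismatches, and chr3:134320841-134321029 in LINC02004, with 33 reads, a −log10 q of 22.9, 1 TEAD core and 2 AP-1 motifs.

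AMOTL2 also had the only shared region at the 10 genes whose interval lay wholly below 1, among intervals not corrected for their number. This region, in an intron 16.3 kb from the canonical TSS (chr3:134357646-134358515), had 103 reads in CTR and 65 in p63 (0.659, 0.476 to 0.908), a −log10 q of 77.5 and 40.1, and the same summit in both lists. A ratio as low was found in 3.26% of the regions open in both lists. Another intronic region 10.1 kb from the TSS had 102 and 94 reads (0.963, 0.720 to 1.29). Past the end of the gene, at chr3:134348435-134349057, the pileup was 51 reads in CTR and 74 in p63 (1.52, 1.05 to 2.21), with a TEAD core and an AP-1 motif. The CTR-only region at chr3:134333578-134334006 had 43 and 26 reads (0.632, 0.373 to 1.05), with a −log10 q of 21.0 and 7.39.

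Over the 85 shared regions the median ratio was 1.065, compared with 1.045 over all 47396, and 58.8% were above 1 compared with 59.4%. The middle of the members' ratios ran from 0.879 to 1.26 (25th to 75th percentile), compared with 0.902 to 1.24 over all. The interval excluded 1 in 7 regions, of which 6 had a higher pileup in p63, and 5 of these 6 had summits no more than 100 bp apart. These intervals were not corrected for their number, and the same count was not made over all 47396 shared regions. Whether the 7 regions or their direction set these genes apart from the whole list was therefore not tested. By role the median ratio was 1.098 over the 23 regions of the coactivators, 1.075 over the 34 of the TEAD factors and 1.013 over the 28 of the targets.

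The motif content near the summits was compared with that of the whole lists. Regions at the same gene are not independent, so the Wilson intervals here and elsewhere are descriptive. Most regions were open in both lists, so the lists are not separate observations. A TEAD core (CATTCC or GGAATG) was present near the summit (within 100 bp) in 29 of 99 CTR regions (29.3%, 95% Wilson interval 21.2 to 38.9) and in 29 of 106 p63 regions (27.4%, 19.8 to 36.5), compared with 19.0% and 18.3% of the whole lists. With an A or G before the core and an A or T after it, the shares were 16.2% and 15.1%, compared with 8.90% and 8.24%. AP-1 motifs were found in 36.4% of the CTR and 34.0% of the p63 regions, close to the 34.2% and 32.5% of the whole lists. The median GC content of these windows was 48.8% in CTR and 50% in p63, compared with 49.8% and 50.2% over the whole lists. The largest counts of regions with a TEAD core were 5, at YAP1 and CCN1 in the CTR list and at TEAD1 and AMOTL2 in the p63 list, and TEAD2 had none in either list. The p63-only regions held a TEAD core in 5 of 21 cases (23.8%, 10.6 to 45.1), compared with 18.0% of all p63-only regions, and the CTR-only regions in 4 of 13 (30.8%, 12.7 to 57.6), compared with 21.9% of all CTR-only regions.

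A p53/p63 family site with at most 3 mismatches lay in 4 of the 106 p63 regions (3.77%, 1.48 to 9.30), compared with 3.78% of the whole p63 list. In the 99 CTR regions it was found in 0 (up to 3.74%), compared with 0.932% of the whole CTR list. Among the 21 p63-only regions 2 held such a site (9.52%, 2.65 to 28.9), compared with 11.4% of all p63-only regions. With up to 4 mismatches the count was 9 of 21 (42.9%, 24.5 to 63.4), compared with 21.9%. Read the other way, 9 of the 16 p63 regions with a match of up to 4 mismatches were p63-only (56.2%), compared with 12 of the 90 without one (13.3%). In the whole p63 list these shares were 63.4% and 20.4%.

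**Figure D5:**
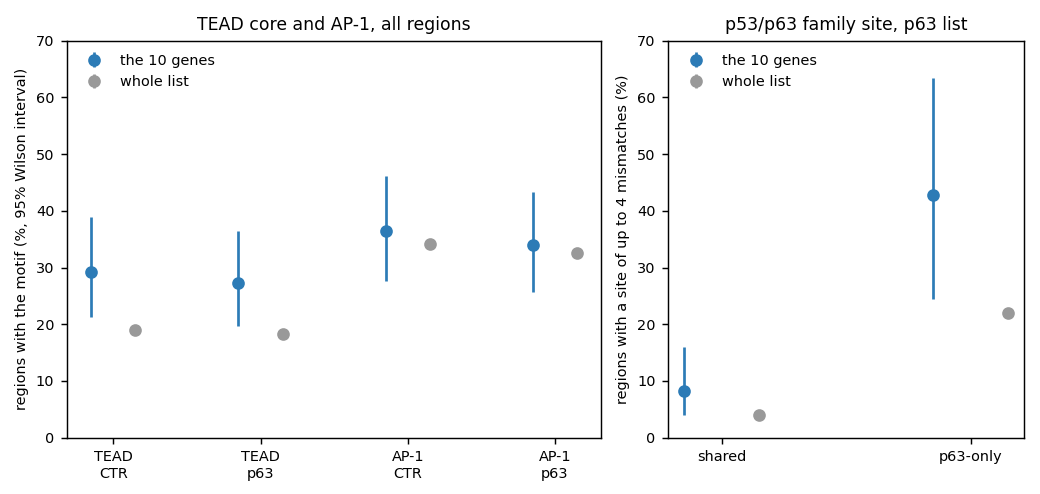
Share of open regions with a motif within 100 bp of the summit (vertical axis, percent, 95% Wilson intervals) at the 10 genes (blue) and in the whole list (grey). The left panel plots the TEAD core and the AP-1 motif in each list. The right panel plots p53/p63 family sites with up to 4 mismatches in the p63 list. There, p63-only regions at the 10 genes reach 42.9%, compared with 21.9% of all p63-only regions. With at most 3 mismatches, which is not plotted, these shares were 9.52% and 11.4%.

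A list of 43 other genes of the pathway, examined by the same rule, gave shares close to those of the whole lists. Of its 382 p63 regions, 87 were p63-only (22.8%, compared with 23.9% of the whole p63 list). Among these, 47 overlapped no CTR peak (12.3% of the 382 regions, compared with 12%). Of its 355 CTR regions, 63 were CTR-only (17.7%, compared with 16.5% of the whole CTR list). Among these, 7 overlapped no p63 peak (1.97% of the 355 regions, compared with 3.29%). Hippo regulators had 41 p63-only of 162 regions, TEAD cofactors 6 of 22 and further YAP/TAZ targets 40 of 198. The most p63-only regions lay at AMOTL1, a second angiomotin-like gene, with 9 of 19, of which 6 overlapped no CTR peak. A p53/p63 family site lay in 4 of the p63 regions of AMOTL1. Over all 43 genes it lay in 16 of the 382 p63 regions, compared with 3.78% of the whole p63 list. AMOTL1 was followed by 7 of 22 at STK3, a core kinase of the cascade, 7 of 16 at ARHGEF17, 7 of 21 at RBMS3, and 6 each at MAP4K4 (of 11) and LIMD1 (of 16). The most CTR-only regions lay at RBMS3 (6 of 19), ASAP1 (5 of 24), the TEAD cofactor VGLL4 (5 of 12), CRIM1 (4 of 18) and DOCK5 (4 of 16). AMOT and VGLL2 had no open region in either list.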

How the data were processed

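Reads were mapped to hg38 with Bowtie2 2.3.4.3 and peaks called with MACS2 from both replicates of each group by the authors, per the labels and the study's methods. The names of the peaks in a list refer to 1 alignment that joins 2 inputs. The sources used here do not say if those were the 2 replicates or both mates of a single library, so the number of samples behind a pileup is uncertain. MACS2 options, duplicate removal and read shifting are not given in the sources used here. Deposited columns were a score, the fold enrichment, −log10 p, −log10 q and the summit offset. Fold enrichment was taken as the summit pileup plus 1 divided by the local background plus 1. Total reads are unknown. Peaks were paired by an overlap of at least 1 bp and annotated with GENCODE 44. Pileup and local background were solved from fold enrichment and −log10 p under the Poisson model, with a tolerance of 0.001 on −log10 p, for 99.98% of peaks and all peaks at the 10 genes. Percentiles rank −log10 q within a list. Motifs were scanned on both strands with pysam 0.24.0, and intervals computed with scipy 1.17.1. The procedures were tested on simulated data. All 10 genes were described. Regions were named if they were the strongest within 1 kb of a TSS, list-only with no peak in the other list or with a −log10 q of 20 or more, if they held a p53/p63 family site, or if they were among the 5 shared regions whose percentile rose or the 5 whose percentile fell most. Further regions were chosen after their values were seen. The genes and lists were chosen with earlier results of these data known. Alternatives were another threshold, overlap rule, window, motif definition and equal numbers of top-ranked peaks.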

Additional observations from a re-analysis of the deposited data

How the results depend on the processing

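No paired analysis was possible because each group has 1 list for both replicates, and for the same reason no replicate could be left out. Of 71 alternative values, 39 stayed within 1.5 times the count or within the interval of the share. With all deposited peaks the CTR regions numbered 155, the CTR-only regions 31 and the p63-only regions 33, which by construction all overlapped no peak of the other list (31 and 33). These were 20% of the CTR and 21.0% of the p63 regions, compared with 21.4% and 27.1% of the whole lists. The other pathway genes then had 167 p63-only (25.1%) and 135 CTR-only regions (21.6%). The stricter threshold of 20 left 57 regions in CTR and 66 in p63. Of these, 8 were open in CTR alone (14.04%, compared with 15.35% of the whole list) and 17 in p63 alone (25.76%, compared with 24.58%). Any counterpart was lacking for 0 in CTR (0%, compared with 0.258%) and 4 in p63 (6.06%, compared with 5.99%). The other pathway genes had 37 open in CTR alone (16.97%). When peaks had to share 50% of each, 5 CTR-only regions had no counterpart (5.05%, compared with 9.83% of the whole list). A 10 kb window left 55 regions in CTR, 6 of them open there alone (10.9%), and 58 in p63, 10 of them open there alone (17.2%). Of these, 1 and 5 had no peak in the other list (1.82% and 8.62%). The gene body alone left 43 and 46 regions, 5 and 8 list-only regions (11.6% and 17.4%), of which 1 and 3 had no peak in the other list (2.33% and 6.52% of the regions). A window of 100 kb gave 21 CTR-only regions (14.3%). The window does not enter the whole-list shares, which were 16.5% CTR-only and 23.9% p63-only, and 3.29% and 12% with no counterpart. Allowing 4 mismatches put a p53/p63 family site in 42.9% of the p63-only regions, compared with 21.9% of all p63-only regions. The TEAD share became 15.1% in p63 and 16.2% in CTR with the longer motif, compared with 8.24% and 8.90% of the whole lists. Within 50 bp it was 14.2% and 12.1%. The share of the whole lists within 50 bp was not determined, so whether the members stood above it was not tested. The lowest summit pileup of any open region was 15 reads in each list, so differences among the shallowest regions rest on few reads.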

Other observations

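The local background of the peak caller differed between the genes. Over the open regions of CCN1 its median was 8.20 reads for CTR and 6.23 for p63, compared with 2.56 and 2.49 over the whole lists. AMOTL2 had medians of 7.91 and 6.18, and TEAD3 of 5.83 and 6.51. At the CCN1 TSS it was 20.3 in CTR and 18.1 in p63, the highest among the open regions of the 10 genes. There, 78 reads in CTR gave a −log10 q of 19.7 and 3.71-fold enrichment, whereas at the ANKRD1 TSS 34 reads over a local background of 1.76 gave a −log10 q of 29.3 and 12.7-fold enrichment. The order of these regions by −log10 q is therefore not their order by pileup.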
